A study of Mus musculus with 8 samples.

Results

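Genes of the major histocompatibility complex (MHC) and of antigen loading were examined in cultured astrocytes that came from retina and optic nerve of neonatal mice. Members were all genes whose symbol begins with H2-, the mouse MHC prefix, together with B2m, Tap1, Tap2, Tapbp, Tapbpl, Cd74, Ciita, Nlrc5, Psmb8, Psmb9 and Psmb10. The GENCODE M21 annotation of the mouse build GRCm38 holds 56 such genes, of which 15 were among the 3624 genes of the authors' deposited table. All 15 were higher in the Spp1 knockout and 0 were lower.

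The comparison was between 4 samples labelled wild type, from C57BL/6 mice, and 4 samples labelled Spp1-/-, from the strain B6.129S6(Cg)-Spp1tm1Blh/J. Spp1 encodes osteopontin, a secreted matrix phosphoprotein and cytokine. Pups of both genotypes were 1 to 3 days old, and their cells grew in serum-containing DMEM/F12, with no other agent named in the labels. Strain and genotype cannot be told apart. The labels name no litter or culture for a sample, so the p-values cover a sample spread that may be technical.

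MHC class I molecules pair a heavy chain with the light chain beta-2-microglobulin and show peptides from inside the cell to CD8 T cells. The peptides are cut by the proteasome, carried into the endoplasmic reticulum by the TAP transporter and loaded with the help of tapasin. Class II molecules pair an alpha and a beta chain, travel with the invariant chain Cd74 to endosomes and receive peptides there with the help of the DM molecule. Interferon raises both pathways, through the transactivators Nlrc5 for class I and Ciita for class II. In the healthy brain and retina most neural cells show little MHC, and microglia and macrophages are the usual class II cells.

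The deposited table gives 1 fold change per gene with its standard error, and no values per sample. Values per sample, library totals and depth could therefore not be shown, and the spread enters only through the standard error (SE). The table lists only genes with an adjusted p up to 0.0499 and a change of at least 0.58 on the log2 scale. Of about 16600 genes tested, a number estimated from the table's p-values, 21.8% were listed. That share belongs beside each count of listed genes below, and a count near it is not a result about its list. Among the listed genes 54.9% were higher, with a median log2 fold change of 0.66 over the whole table and of 1.31 over its higher genes. The 15 listed members had a median of 1.30, so their typical size of change was close to that of any higher gene in the table. As a share of annotated names, 15 of 56 members were listed, but how many of the other 41 were tested is unknown, and absence from the table was not read as no change.

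Spp1 fixed the direction: in the authors' deposited table it fell by 5.90 on the log2 scale (SE 0.11), and values were therefore read as knockout over wild type. Of the cell types, 23 of 24 macrophage and microglia markers were listed in the authors' deposited table, all higher, with log2 fold changes from 0.91 to 4.36 and a median of 2.22. Worked out from the authors' deposited table, those 23 markers summed to an implied mean normalized count of 43386 in wild-type and 203133 in knockout samples. More cells of a type and more RNA per cell cannot be told apart in such bulk samples. The part of these markers in the results below was not tested. Astrocyte markers were listed in both directions, 4 higher and 3 lower of 13 in the authors' deposited table. The higher ones were Gjb6, a gap junction gene, at 4.28 (SE 0.37), Aqp4, the water channel gene, at 1.15 (SE 0.16), Aldoc at 1.18 (SE 0.21) and Gfap, the astrocyte intermediate filament gene, at 0.66 (SE 0.16) in the authors' deposited table. The lower ones were Fabp7 at -1.23 (SE 0.10), S100b at -1.82 (SE 0.15) and Pax2 at -0.98 (SE 0.26) in the authors' deposited table. Ddx3y, a Y-linked gene, stood at 13.26 (SE 1.03) in the authors' deposited table, with implied means of 0.16 in wild type and 1605 in the knockout. The Y-linked genes Eif2s3y, Uty and Kdm5d were higher too, at 11.71, 6.01 and 5.91 in the authors' deposited table. The X-linked gene Xist was not listed. The labels do not give sex, but the groups differed in Y-linked RNA, so sex make-up and genotype cannot be told apart either.

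Class I promoters carry short elements through which NF-kappa-B, interferon and the transactivators act, and the sequences before the start sites of some members are shown for that reason. They come from RefSeq (GRCm38.p6), which held a promoter for 38 of the 56 members and for 11 of the 15 listed ones. Listed members with no entry were Cd74, H2-K2, H2-Q5 and Nlrc5. Each line is read 5′ to 3′ on the gene's own strand, and capitals mark 4 motifs found on either strand. These are the core of an interferon-stimulated response element (ISRE, GAAANNGAA), a variant of it (GAANNGAAA) that can overlap it, a kappa-B element (GGGGATTCC) and the Y box (CTGATTGG). The lines cover H2-K1 at chr17:34000348-34000597 (minus strand), H2-Q7 at chr17:35438905-35439154 (plus), B2m at chr2:122147437-122147685 (plus), and short stretches for H2-D1 at chr17:35262923-35262952 (plus), H2-T23 at chr17:36032807-36032835 (minus) and Psmb9 at chr17:34187331-34187360 (minus).
H2-K1: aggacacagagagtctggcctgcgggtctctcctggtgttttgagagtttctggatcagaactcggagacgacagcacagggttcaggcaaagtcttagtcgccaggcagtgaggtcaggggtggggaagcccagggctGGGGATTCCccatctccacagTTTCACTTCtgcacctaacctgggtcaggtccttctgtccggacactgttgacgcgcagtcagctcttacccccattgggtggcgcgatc
H2-D1: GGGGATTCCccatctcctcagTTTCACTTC
H2-Q7: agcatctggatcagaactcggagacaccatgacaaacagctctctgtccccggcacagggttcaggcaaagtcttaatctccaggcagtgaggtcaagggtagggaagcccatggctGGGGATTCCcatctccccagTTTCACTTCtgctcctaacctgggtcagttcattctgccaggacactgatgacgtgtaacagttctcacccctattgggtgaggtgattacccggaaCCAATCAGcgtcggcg
H2-T23: atcctactgctTTCTCTTTCataaagaca
B2m: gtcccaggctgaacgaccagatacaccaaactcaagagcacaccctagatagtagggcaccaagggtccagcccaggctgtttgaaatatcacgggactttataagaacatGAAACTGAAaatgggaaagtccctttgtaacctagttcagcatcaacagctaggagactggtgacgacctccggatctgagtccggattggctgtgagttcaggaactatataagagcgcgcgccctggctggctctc
Psmb9: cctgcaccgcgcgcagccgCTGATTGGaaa

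In the 250 bases before the start, the kappa-B element was present in 3 of the 11 listed members with a promoter, H2-K1, H2-D1 and H2-Q7, in 1 of 27 unlisted members, H2-Q6, and in 59 of 27025 RefSeq promoters. In all 3 listed members, and in the unlisted H2-Q6 as well, it stood just before the ISRE variant. The ISRE core was found in B2m and H2-T23 among listed members and in 7.16% of all promoters, and the variant in H2-K1, H2-D1, H2-Q7 and H2-M3 and in 6.34% of all. Either form was therefore in 6 of 11 listed members, in 5 of 27 unlisted members and in 12.6% of all promoters. The gamma-activated site TTCNNNGAA was found in H2-DMb2, H2-M3 and Psmb8 and in 7.18% of all promoters. The Y box stood in 4 of 11 listed members (H2-D1, H2-Q7, H2-T23 and Psmb9), in 15 of 27 unlisted members and in 4.07% of all promoters. The shorter CCAAT box letters ATTGG, which lie inside the Y box, were in 10 of 11 listed members, 22 of 27 unlisted members and 34.5% of all promoters. The Y box of Psmb9 and that of the unlisted Tap1 are the same stretch of DNA, because the starts of these genes lie 226 bases apart on opposite strands. That stretch, with the ATTGG in it, was therefore counted among both the listed and the unlisted members. The variant, the kappa-B element and the Y box were chosen after these promoters were read, so these shares are a description only.

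The classical class I heavy chains, which bind most peptides shown to CD8 T cells, were both higher in the knockout. H2-K1 (ENSMUSG00000061232.16; chr17:33996017-34000347, minus strand) had a log2 fold change of 1.25 (SE 0.11, 95% interval 1.03 to 1.47) in the authors' deposited table, with an adjusted p of 5.83e-27. That is a 2.38-fold higher level, from an implied mean normalized count of 2823 in wild type to 6719 in the knockout. H2-D1 (ENSMUSG00000073411.11; chr17:35262730-35267499, plus strand) stood at 1.34 (SE 0.26, interval 0.83 to 1.86, adjusted p = 2.78e-06) in the authors' deposited table. Its implied mean moved from 2604 to 6615, close to H2-K1 in level and in fold, with overlapping intervals and a larger standard error.

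The class I light chain and tapasin were higher in the knockout, and 3 further loading genes were not listed. B2m (ENSMUSG00000060802.8; chr2:122147686-122153083, plus strand), beta-2-microglobulin, had a log2 fold change of 1.06 (SE 0.18, interval 0.71 to 1.42, adjusted p = 7.2e-08) in the authors' deposited table. Its interval overlapped those of H2-K1 and H2-D1. Tapbp (ENSMUSG00000024308.15; chr17:33915899-33929292, plus strand), which encodes tapasin, stood at 0.68 (SE 0.12, interval 0.44 to 0.91, adjusted p = 2.92e-07) in the authors' deposited table. The tapasin interval lay wholly below that of H2-K1, a difference of 0.57 on the log2 scale. The covariance of members measured in the same samples is unknown, so no p is given for such differences. The peptide transporter genes Tap1 and Tap2 and the tapasin-like gene Tapbpl were not in the table.

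Levels were also compared per kilobase of annotated exon, with the exons of all transcripts of a gene joined. That length was 860 bases for B2m, 2938 for H2-K1 and 2579 for H2-D1. It can exceed the length of the main transcript, so ratios between genes on this scale depend on the annotation. B2m stood at an implied 6638 normalized counts per kilobase in wild type and 13887 in the knockout. The summed level of H2-K1 and H2-D1 was 1971 and 4852 per kilobase. B2m was thus 3.37 times the summed heavy chains in wild type and 2.86 times in the knockout on this scale. Tapbp stood at 943 and 1507 per kilobase, close to H2-K1 alone in wild type (961) and below it in the knockout (2287).

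**Figure D1:**
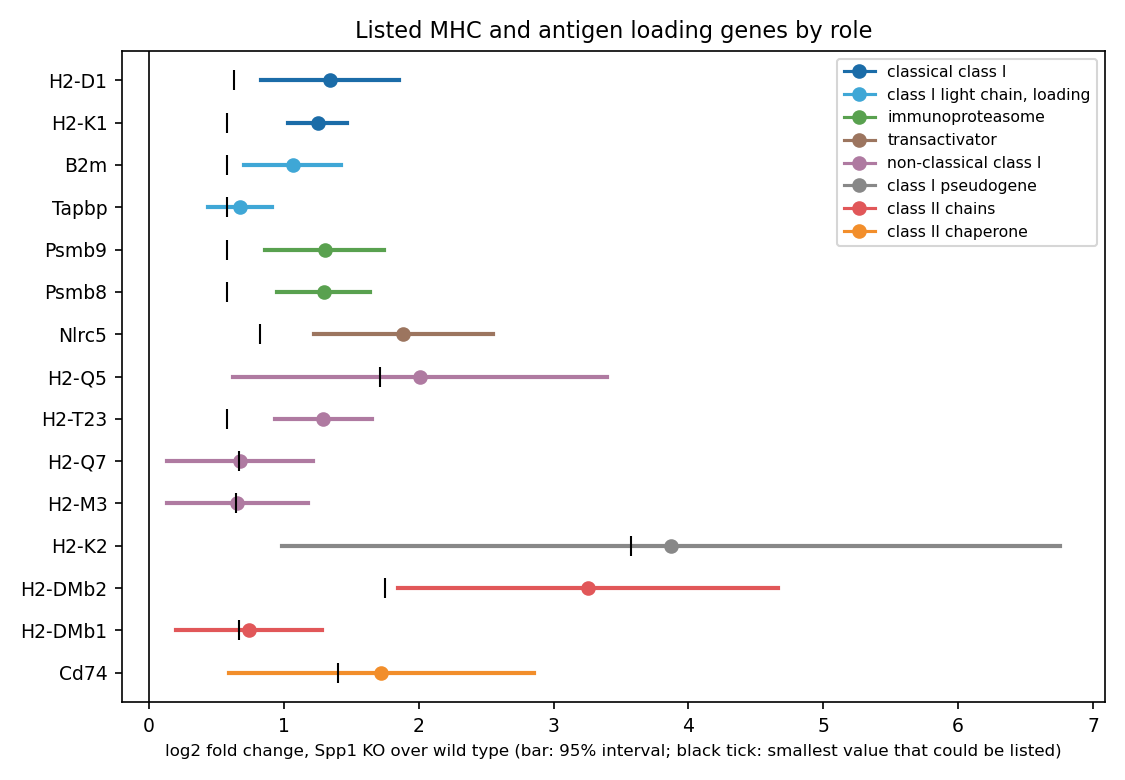
Log2 fold change of knockout over wild type (x axis) for the 15 listed members (y axis), coloured by role, with 95% intervals from the deposited standard errors; black ticks mark the smallest value each gene's standard error allowed in the table. All 15 points lie right of 0, and those of H2-Q7, H2-M3, H2-DMb1 and Tapbp lie close to their ticks.

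The immunoproteasome, the interferon-induced form of the proteasome that favours class I peptides, was higher in 2 of its 3 specific subunits. Psmb8 (ENSMUSG00000024338.15; chr17:34197721-34201454, plus strand) had a log2 fold change of 1.30 (SE 0.18, interval 0.95 to 1.64, adjusted p = 3.89e-12) in the authors' deposited table. Psmb9 (ENSMUSG00000096727.3; chr17:34181987-34187764, minus strand), a close neighbour on the chromosome, also stood at 1.30 (SE 0.23, interval 0.86 to 1.75, adjusted p = 1.24e-07) in the authors' deposited table. Fold changes of the pair agreed within their standard errors at different levels, with implied means of 294 and 721 for Psmb8 and of 96.0 and 237 for Psmb9. Psmb10, the third such subunit, was not listed. Of the 14 genes of the ordinary proteasome core, 0 were listed, among them Psmb5, Psmb6 and Psmb7, whose products the immunoproteasome subunits replace.

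Psmb9 and Tap1 are read outward from a shared promoter region, with RefSeq starts 226 bases apart, and their GENCODE models overlap on opposite strands. Psmb9 was listed and Tap1 was not. No source states whether counting used strand, so reads from the overlap cannot be assigned. Other listed members with an overlapping gene on the opposite strand were B2m (Patl2), H2-T23 (A930015D03Rik), Psmb8 (Gm20496), Nlrc5 (9330175E14Rik) and Tapbp (Gm19412), the last also overlapping Zbtb22 on its own strand.

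Nlrc5 (ENSMUSG00000074151.13; chr8:94434356-94527272, plus strand), the transactivator of class I genes, was higher too. Its log2 fold change was 1.89 (SE 0.34, interval 1.22 to 2.55, adjusted p = 3.27e-07) in the authors' deposited table. Its implied mean rose from 95.1 to 351, a 3.69-fold higher level. The interval lay above those of Tapbp, H2-Q7 and H2-M3 and overlapped those of H2-K1, H2-D1, B2m, Psmb8 and Psmb9. Ciita, the class II transactivator, was not in the table.

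**Figure D2:**
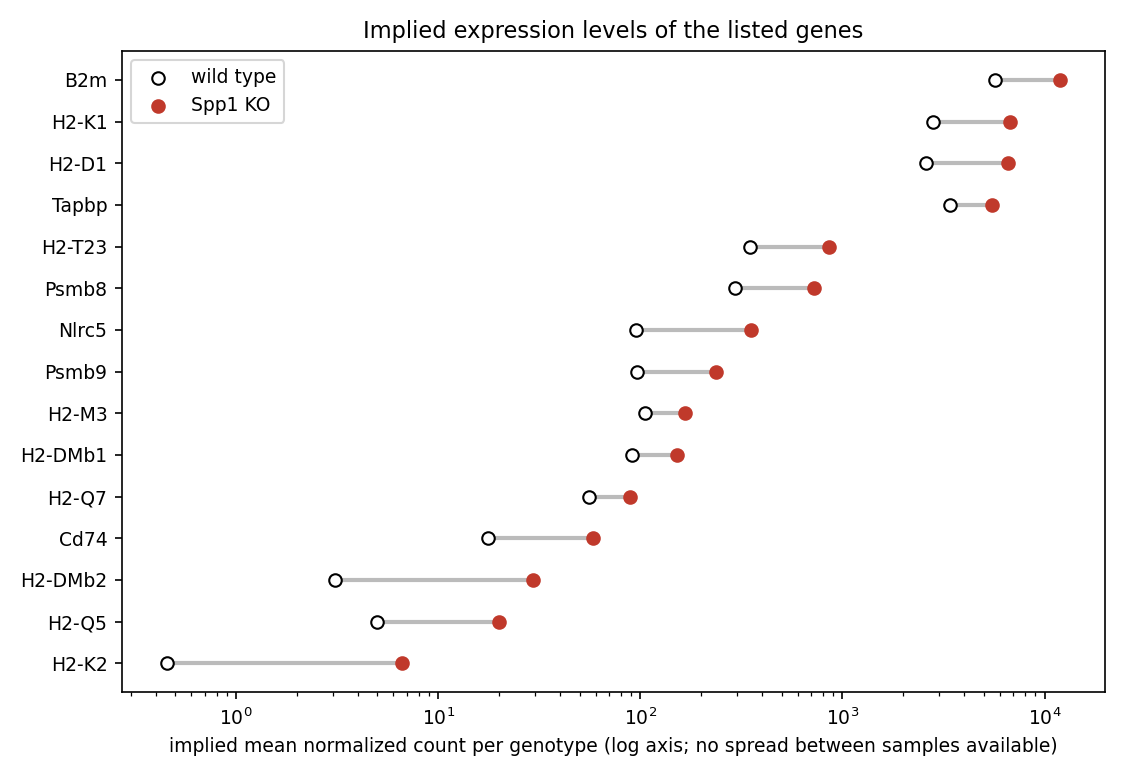
Implied mean normalized count in wild type (open circles) and knockout (red circles) on a log axis for each listed member, ordered by its mean; the values come from 1 mean and 1 fold change per gene, so no spread between samples can be drawn. B2m, H2-K1, H2-D1 and Tapbp are the 4 highest in both genotypes, from 2604 in wild type upward, while Cd74, H2-DMb2, H2-Q5 and H2-K2 lie at or below 58.5.

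Non-classical class I genes encode heavy chains with few alleles and special ligands. GENCODE M21 lists 29 of them under H2-Q, H2-T, H2-M and H2-Bl names, pseudogenes included. Of these, 4 were in the authors' deposited table, all higher, beside 21.8% of all genes tested. H2-T23 (ENSMUSG00000067212.8; chr17:36029773-36032855, minus strand) encodes Qa-1, which presents class I leader peptides to NK receptors. It was the most abundant of the 4 and had a log2 fold change of 1.29 (SE 0.18, interval 0.94 to 1.65, adjusted p = 3.05e-11) in the authors' deposited table. Its implied mean moved from 350 to 859, and its fold was nearly that of the classical pair at a lower level of 121 and 297 per kilobase.

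H2-M3 (ENSMUSG00000016206.6; chr17:37270220-37274484, plus strand), which presents formylated peptides, stood at 0.66 (SE 0.27, adjusted p = 0.0470) in the authors' deposited table. H2-Q7 (ENSMUSG00000060550.16; chr17:35439155-35443773, plus strand), which encodes a Qa-2 antigen, stood at 0.68 (SE 0.28, adjusted p = 0.0474) in the authors' deposited table. Both lay within 0.01 of the smallest change that their standard errors would have let into the table, 0.65 and 0.67. H2-Q5 (ENSMUSG00000055413.12; chr17:35394126-35397800, plus strand), annotated as a polymorphic pseudogene, had the largest fold change of the 4, 2.01 (SE 0.71, adjusted p = 0.0182), in the authors' deposited table. Its implied means were 4.98 and 20.1. The 25 unlisted members of this class were 6 H2-Q, 5 H2-T and 13 H2-M genes and H2-Bl, among them H2-T22, H2-T24 and the H2-M10 genes, which are known from the vomeronasal organ.

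H2-K2 (ENSMUSG00000067203.8; chr17:33974659-33978827, minus strand), a transcribed class I pseudogene next to H2-K1, was listed at 3.87 (SE 1.47, adjusted p = 0.0314) in the authors' deposited table. Its implied means were 0.45 and 6.63, so the size of that value depends on counts near 0 and no fold is given.

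Class I genes resemble one another, and reads can be shared between them. Of all windows of 50 bases in the transcripts of H2-Q5, 36.4% also occurred in a transcript of another gene, 25.5% in H2-Q7. The share was 26.4% for H2-Q7, 13.6% for H2-T23, 12.8% for H2-D1, 9.63% for H2-K1 and 9.38% for H2-K2, and 0.58% for H2-M3. With windows of 100 bases the share was at most 3.59% for listed class I heavy chain genes other than H2-Q5 and H2-Q7. No source states the read length or the treatment of shared reads, so the H2-Q values are uncertain.

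Class II genes were listed at low levels and without their main surface chains. Of 12 class II chain genes in GENCODE M21, pseudogenes included, 2 were listed, beside 21.8% of all genes tested. Both encode the beta chain of DM, which exchanges peptides in endosomes. H2-DMb1 (ENSMUSG00000079547.4; chr17:34153072-34160230, plus strand) stood at 0.74 (SE 0.28, interval 0.20 to 1.28, adjusted p = 0.0266) in the authors' deposited table. H2-DMb2 (ENSMUSG00000037548.15; chr17:34143307-34151555, plus strand), which lies beside it, stood at 3.26 (SE 0.72, interval 1.84 to 4.67, adjusted p = 5.4e-05) in the authors' deposited table.

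These neighbouring genes differed by 2.51 on the log2 scale and their intervals did not overlap. Their levels differed as well. The implied means were 90.8 and 152 for H2-DMb1 and 3.09 and 29.5 for H2-DMb2, or 54.0 and 90.4 per kilobase against 1.77 and 16.9. Of the windows of 50 bases, 22.7% of those of H2-DMb1 occur in H2-DMb2 and 21.2% of those of H2-DMb2 in H2-DMb1.

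Cd74 (ENSMUSG00000024610.15; chr18:60803848-60812652, plus strand), the invariant chain that guides class II molecules, had a log2 fold change of 1.72 (SE 0.58, interval 0.59 to 2.85, adjusted p = 0.0124) in the authors' deposited table. Its implied mean moved from 17.7 to 58.5. The surface chains H2-Aa, H2-Ab1 and H2-Eb1, the DM alpha chain H2-DMa and the DO chains H2-Oa and H2-Ob, which restrain DM, were not in the table. Nor were H2-Eb2, H2-Ea-ps, H2-Pa and H2-Pb. The last remaining H2- name, H2-Ke6, is not an MHC chain and was not listed.

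Set side by side, the classical class I genes had log2 fold changes of 1.25 and 1.34, the listed non-classical genes from 0.66 to 2.01 and the listed class II chains 0.74 and 3.26. The ranges overlap. The summed level per kilobase was 1971 and 4852 for classical genes, 211 and 446 for the 4 listed non-classical genes, and 55.8 and 107 for the listed class II chains, in wild type and knockout. Over all 105 pairs of listed members, the intervals of 16 pairs did not overlap, and 9 of those pairs held H2-DMb2 and 6 held Tapbp. A difference in fold between the classes was not tested.

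Listed genes that lie among the members on the chromosome went both ways. Between the outermost H2- genes, over 3.51 Mb of chromosome 17, GENCODE M21 holds 323 genes, of which 173 are protein-coding. The authors' deposited table listed 29 of them, 11 members and 18 others. The 11 members were all higher, whereas of the 18 others 10 were higher and 8 lower, that is 55.6% higher beside the 54.9% of the whole table. Among the higher neighbours, the authors' deposited table gave C4b, a complement component, 1.72 (SE 0.18), Aif1, a macrophage marker, 2.22 (SE 0.27) and Lst1, a leukocyte transcript, 3.60 (SE 0.72). Cdsn stood at 0.96 (SE 0.15) and Tnxb, a tenascin, at 0.90 (SE 0.16) in the authors' deposited table. The lower neighbours in the authors' deposited table included Egfl8 at -4.11 (SE 0.85), the myelin gene Mog at -4.44 (SE 0.94), Ppp1r11, a phosphatase regulator, at -0.81 (SE 0.22), Gtf2h4, a subunit of TFIIH, at -0.69 (SE 0.20) and Vars2, a mitochondrial tRNA synthetase, at -0.64 (SE 0.22).

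**Figure D3:**
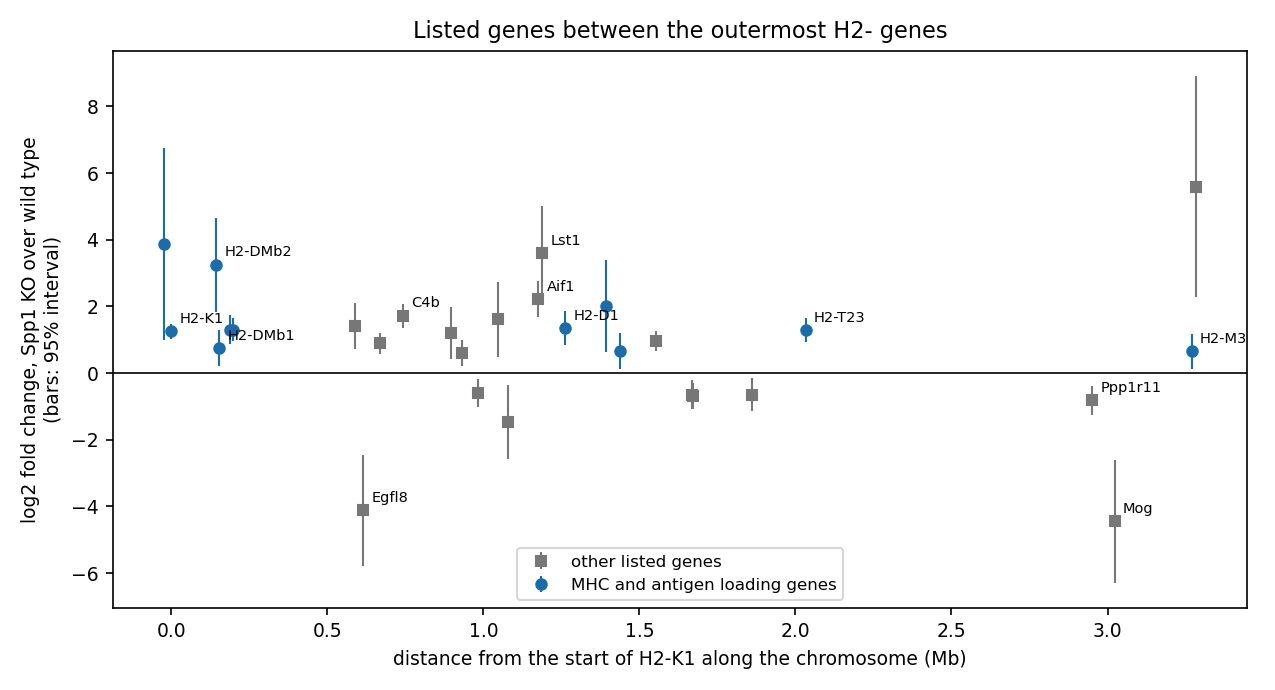
Log2 fold change of knockout over wild type with 95% intervals (y axis) for the 29 listed genes between the outermost H2- genes, by distance from the start of H2-K1 in Mb (x axis); circles are the 11 members and squares the 18 other genes. Every circle lies above 0, while 10 squares lie above and 8 below.

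Of 12 other genes of class I processing, 1 was higher and 1 lower in the authors' deposited table. Over all genes tested 21.8% were listed, so this low count was not read as a result about the pathway. Erap1, the aminopeptidase that trims class I peptides, stood at 0.95 (SE 0.32, adjusted p = 0.0125) in the authors' deposited table. Ide, a peptide-degrading metalloprotease, fell by 1.05 (SE 0.15, adjusted p = 1.17e-10) in the authors' deposited table. The chaperones Calr, Canx and Pdia3, which hold the heavy chain during loading, and the proteasome activators Psme1 and Psme2 were among the 10 not listed.

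Of 19 other genes of the class II pathway 10 were listed, all of them higher, with a median log2 fold change of 1.77. Marchf1, a ubiquitin ligase that removes class II and Cd86 from the cell surface, stood at 3.38 (SE 0.23, adjusted p = 1.71e-47) in the authors' deposited table. Cd83, which opposes Marchf1, stood at 2.48 (SE 0.22) and the costimulatory ligand Cd86 at 2.28 (SE 0.24) in the authors' deposited table. Ctss, the protease that trims the invariant chain, stood at 2.21 (SE 0.19) in the authors' deposited table. The others were Cd40, Ctsb, Ctsl, Ctsd, Lgmn and Nfya, from 0.64 to 1.92 in the authors' deposited table. The 9 not listed included Rfx5, Rfxap and Rfxank, which bind the class II promoter, and Ifi30 and Cd80.

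Interferon signalling genes were listed in 2 of 18 cases, both higher, beside 21.8% of all genes tested. Irf8, a transcription factor of myeloid cells, stood at 2.08 (SE 0.23) and Stat2 at 0.76 (SE 0.16) in the authors' deposited table. Irf1, Ifngr1, Ifngr2, Jak1, Jak2 and Socs1 were not listed. Class I-like genes without an H2- name went both ways, 4 higher and 2 lower of 14 in the authors' deposited table. Hfe, which regulates iron uptake, stood at 1.05 (SE 0.12), Mr1, which presents vitamin B metabolites, at 0.81 (SE 0.12), Mill2 at 1.41 (SE 0.32) and Procr, the protein C receptor, at 0.77 (SE 0.25) in the authors' deposited table. The 2 lower genes encode stress ligands of the NK receptor NKG2D, H60b at -1.76 (SE 0.24) and H60c at -2.92 (SE 0.70) in the authors' deposited table, whereas the NKG2D ligand genes Raet1d, Raet1e and Ulbp1 of the same list were not listed.

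**Figure D4:**
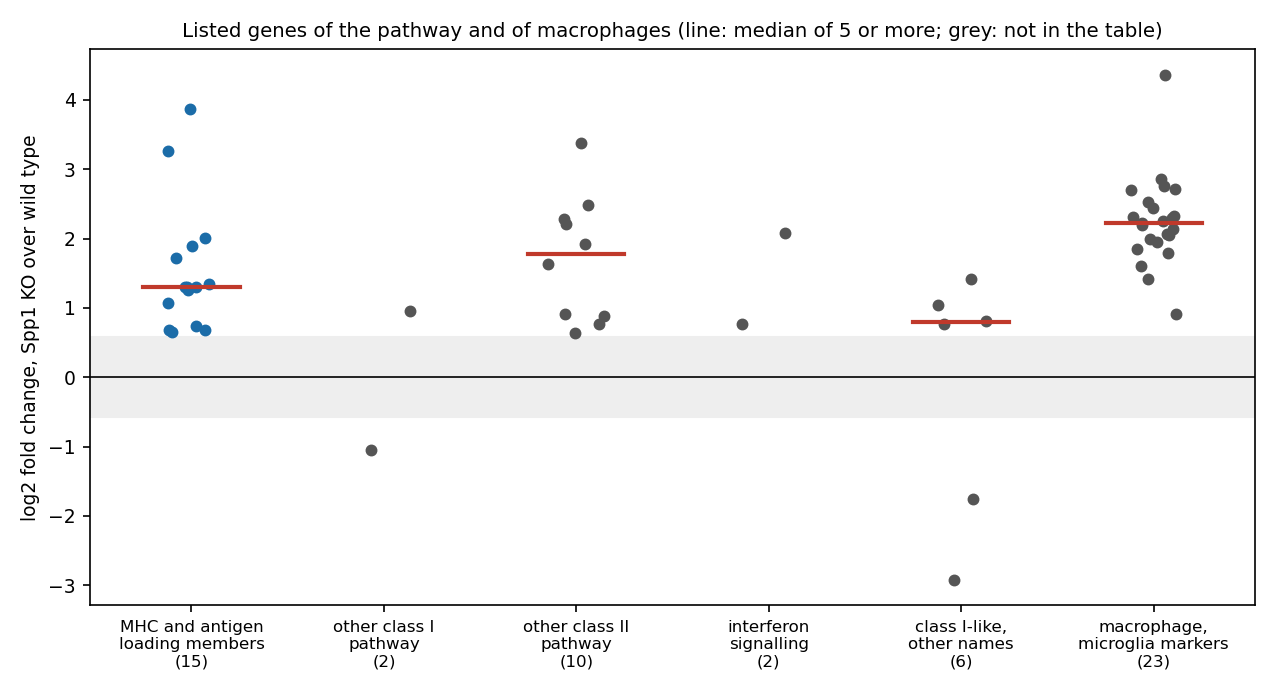
Log2 fold change of knockout over wild type (y axis) for the listed members and for the listed genes of 5 other lists (x axis, number of listed genes in brackets); each point is a gene, red lines are medians of lists with 5 or more genes, and the grey band holds no gene because the table starts at 0.58. The members have a median of 1.30 and the macrophage and microglia markers one of 2.22.

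The members' fold changes were set beside those of the macrophage and microglia markers, all of which point the same way. Of the 23 listed markers, 17 had an interval wholly above that of H2-K1, the member with the smallest standard error. Fewer lay above the wider intervals of H2-D1 (up to 1.86) and Nlrc5 (up to 2.55). Of the 15 members, 10 had an interval wholly below the markers' median of 2.22. The members above that median were H2-DMb2 and H2-K2, both with a mean normalized count under 50. Among the markers, Mpeg1, a pore-forming protein, stood at 2.30 (SE 0.09), Itgam, the CD11b integrin, at 2.70 (SE 0.12), Adgre1, the F4/80 gene, at 2.85 (SE 0.13) and Mrc1, the mannose receptor, at 4.36 (SE 0.13) in the authors' deposited table. Tmem119, a microglia gene, was not listed. Of 10 dendritic cell markers 1 was listed, Itgax, the CD11c integrin, at 1.50 (SE 0.55) in the authors' deposited table. Of 16 T, B and NK cell markers 0 were listed. How many of the dendritic, T, B and NK cell markers were tested is unknown, so these low counts were not read as absence of such cells. Endothelial cells, another class I-rich type, had 3 of 10 markers listed in the authors' deposited table, Kdr at 2.08 (SE 0.18), Cdh5 at 1.11 (SE 0.11) and Flt1 at -0.98 (SE 0.26). The part of any of these cell types in the MHC values was not tested.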

How the data were processed

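Total RNA of 8 samples of cultured astrocytes (4 per genotype) was sequenced. CASAVA 1.8, STAR 2.7 and DESeq2 1.30.1 and the build GRCm38 are named, without roles, in the submitters' processing notes; no source states annotation, counting or filters. Per the file headers, the authors deposited per gene the mean normalized count (a signal, 1 value for all samples together), the log2 fold change, its standard error, the Wald statistic (a score) and p-values, raw and adjusted. Adjusted p-values printed are the authors' own, as deposited, from a model across all genes whose column names are those of DESeq2.

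From these, 95% intervals were computed from the standard errors with the normal quantile. Implied group means assume equal group sizes. The smallest listable change is the larger of 0.58 and 2.43, the smallest Wald statistic in the table, times the standard error. The number of genes tested was estimated from adjusted over raw p-values of 20 genes, checked on simulated data. The simulated data had no limit on the size of change, so that check does not cover the table's limit of 0.58. Depth is unknown. The planned count test needs values per sample and was not run. Members were found by symbol in GENCODE M21 (GRCm38), which held 3586 of the 3624 symbols, and shared windows in its transcripts. Motifs were searched in the first RefSeq promoter of each gene; short stretches are printed where GENCODE calls the window a UTR of another transcript. Every listed member is named, and of other lists up to 4 genes (5 for neighbours) with the smallest adjusted p in each direction. The Y-linked genes, Xist and the other listed class II pathway genes were named after their values were seen. One item of the interferon list is not reported here. Members and lists were chosen with earlier results of these data known. Python 3.11.15, pandas 2.3.3, numpy 2.4.6 and scipy 1.17.1 were used.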

Additional observations from a re-analysis of the deposited data

How the results depend on the processing

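All 15 listed members were higher, so no limit on the same table could leave a lower one. The alternatives therefore do not test the direction and show only how many members stay. Limiting the table to log2 changes of 1 or more in size left 11 members higher, a mean count of 100 or more left 10, a lower interval end of 0.58 or more left 11 and dropping the H2-Q and H2-T genes left 12, each with 0 lower. With adjusted p up to 0.001, 9 were left. By class, both classical genes passed each of these limits, whereas of the 4 non-classical genes 2 passed the limit on size, 2 that on the mean count, 2 that on the interval and 1 that on adjusted p, and 1 was left without the H2-Q and H2-T genes. Of the 2 class II chains, H2-DMb2 alone passed the limits on size, interval and adjusted p, and H2-DMb1 alone that on the mean count. Over all members left by each limit, the median log2 fold change ranged from 1.27 to 1.34. Of the 8 lower neighbours, 3 had log2 changes of 1 or more in size and 5 a mean count of 100 or more. Of the 10 higher class II pathway genes, 6 changed by 1 or more. These limits can only shorten the lists. No paired analysis was possible because the table holds no values per sample, and for the same reason leaving out a replicate was not run. Low counts limit precision: 4 members had a mean under 50, with standard errors from 0.58 to 1.47.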
